A study of Mus musculus with 3 samples.

Results

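Within the fetal mouse brain, some microglia carried many transcripts of the neighbouring chemokine genes Ccl3 and Ccl4, and these cells are described here. A cell belonged to them when it passed the gate for microglia and held at least 5 unique molecular identifiers (UMIs, 1 per captured transcript molecule) of each gene. The gate asked for at least 500 detected genes, at most 10% mitochondrial UMIs, at least 3 of the 6 microglia genes P2ry12, Tmem119, Sall1, Siglech, Gpr34 and Slc2a5, no Ccr2, and at most 1 of the 5 border macrophage genes Mrc1, F13a1, Cd163, Lyve1 and Ms4a7. It also asked for fewer than 10 Spp1 UMIs and at most 3 of 10 cell cycle genes. It left 16110 gated microglia among 36354 cells that passed the cell filter, and 570 of them were Ccl3/Ccl4-high. The members were chosen by measured counts, so their Ccl3 and Ccl4 levels, and every comparison with the rest of the gated microglia, are descriptions without a test.

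Droplet 3' RNA libraries had been made from CD11b+ cells, enriched on magnetic beads from fetal brain at E18.5. There was 1 library for each of 3 groups, labelled by genotype as Ncr1-cre with saline, Ncr1-cre with polyIC, and Gzmb-cko (Ncr1-cre;gzmbf/f) with polyIC. Saline or polyIC was given to pregnant mice. All 3 groups carried the Ncr1-cre allele, in which the promoter of a natural killer cell receptor gene drives Cre, and polyIC is a synthetic double-stranded RNA. The labels do not say how many brains were pooled or whether dam or fetus had the genotype, and no Gzmb-cko group with saline was analysed here. Where 3 values follow each other, the first is from Ncr1-cre with saline, the second from Ncr1-cre with polyIC and the third from Gzmb-cko with polyIC. With 1 library per group there is no replicate check: every 95% interval covers counting error only, and no difference between libraries is tested.

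CCL3 and CCL4 are secreted chemokines that attract leukocytes through G protein-coupled receptors, among them CCR1 for CCL3. Microglia, the resident macrophages of the brain, transcribe both genes quickly after contact with damage signals, microbial products or handling stress, together with other early inflammatory genes. Such transcripts can also be induced while tissue is dissociated, and the labels name no transcription inhibitor.

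The libraries held 13820, 14887 and 15306 barcodes with 85442198 to 105574073 UMIs in all. The shallowest saline barcode had 3133 UMIs and the shallowest of each polyIC library 500, so the lower limits of the libraries differed. Pairs of libraries shared 63 to 71 barcode sequences, none of them a Ccl3/Ccl4-high cell in both. The microglial identity of the members was checked with 10 microglia genes that the gate did not use, such as Cx3cr1 and Csf1r. Every member had at least 3 of them, with a median of 8, 9 and 8 per cell. The summed level of the 10 was 17921, 22800 and 22577 CPM (UMIs of a gene scaled to a common total per group of cells) in the members and 19310, 23413 and 24084 CPM in gated microglia without Ccl4.

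Among the 5 genes proposed as markers of these cells, Fosb and Lag3 did not set them apart. Ccl3 and Ccl4 were high by the rule. Csf1, which encodes the growth factor M-CSF that macrophages depend on, stood at 263, 258 and 292 CPM in the members. In gated microglia without Ccl4 it stood at 72.9, 63.2 and 70.3 CPM, so the ratio was 3.61 (95% interval 3.07 to 4.23), 4.09 (3.66 to 4.56) and 4.16 (3.77 to 4.58). Fosb, a subunit of the AP-1 transcription factor, stood at 200, 355 and 308 CPM against 224, 352 and 367 CPM, with ratios of 0.89, 1.01 and 0.84. Lag3, which encodes an inhibitory immune receptor, had ratios of 1.26 (0.95 to 1.65), 1.26 (1.08 to 1.46) and 1.43 (1.25 to 1.64). In these libraries Fosb was thus as high in microglia without Ccl4, and the name Ccl3/Ccl4-high is used for the rule alone.

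Ccl3 (ENSMUSG00000000982, mm10 chromosome 11, 83647844 to 83649355, minus strand) and Ccl4 (ENSMUSG00000018930, 83662584 to 83664683, plus strand) lie 13229 bases apart. Members held a median of 10, 12 and 13 Ccl3 UMIs, with maxima of 45, 184 and 432. Their median Ccl4 count was 10, 9 and 10 UMIs, with maxima of 125, 223 and 590. The medians lay close together in cells that the rule cuts at 5 UMIs of both genes, while the maxima lay far apart. In the Gzmb-cko library 1 cell held both maxima. Just inside the threshold, with 5 or 6 Ccl4 UMIs, were 27, 72 and 63 members. Just outside it, with at least 5 Ccl3 UMIs but 3 or 4 Ccl4 UMIs, were 45, 110 and 106 cells.

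**Figure D1:**
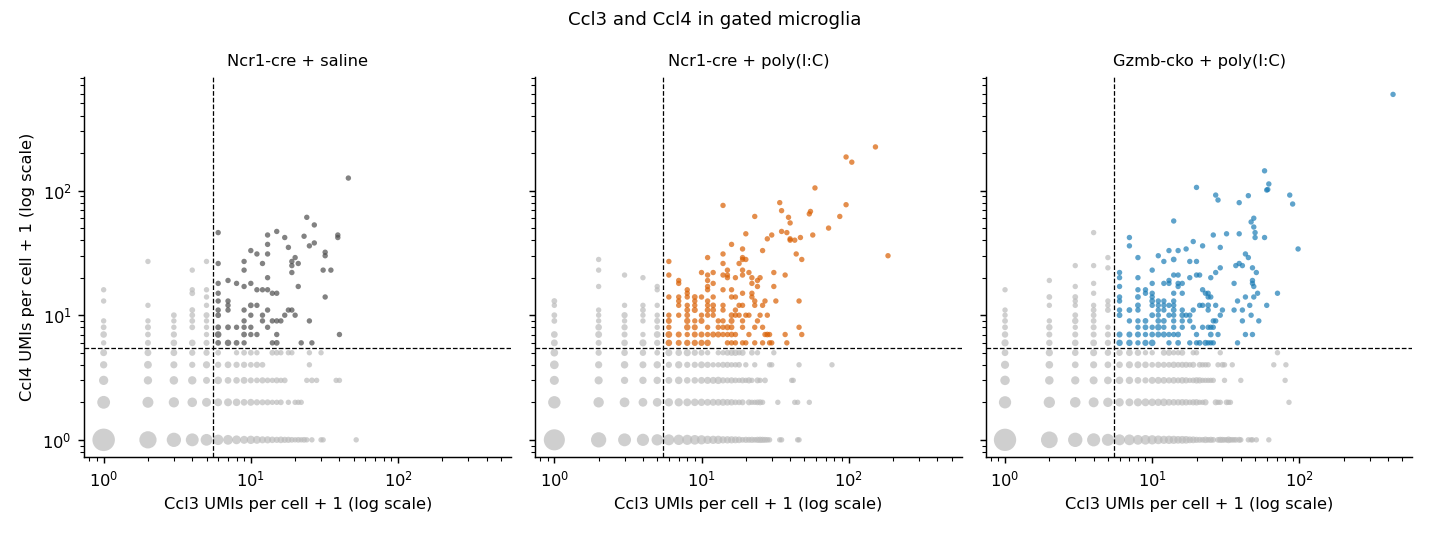
Ccl3 and Ccl4 UMIs per cell (each plus 1, log axes) in the gated microglia of each library. A point is a pair of values and its size grows with the number of cells there; dashed lines mark the threshold of 5 UMIs and coloured points the 103, 236 and 231 members. Members run on without a gap from the grey cells below the threshold, and 1 cell of the Gzmb-cko library stands apart with 432 and 590 UMIs.

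Members contributed most of the Ccl4 message of gated microglia in both polyIC libraries but a smaller part of the Ccl3 message. They held 46.9%, 61.9% and 62.5% of all Ccl4 UMIs in gated microglia, and 14.1%, 26.5% and 24.7% of all Ccl3 UMIs. Ccl3 was the more widespread transcript: 48.7%, 53.9% and 55.0% of gated microglia had at least 1 Ccl3 UMI, and 20.04%, 28.0% and 24.9% had at least 1 Ccl4 UMI. In cell types that should lack both genes the shares were lower. Choroid plexus cells without microglia genes had Ccl4 in 5.17%, 1.84% and 3.19% and Ccl3 in 9.05%, 7.0% and 5.84% of cells, at median depths of 4948, 3752 and 3328 UMIs against 4507, 5236 and 5667 in gated microglia. No choroid plexus cell without microglia genes held 5 UMIs of both chemokines, in 0 of 232, 543 and 565 cells, which by the limit of 3 counts of the total allows shares of up to 1.29%, 0.552% and 0.531%. Neurons without microglia genes had 0 of 72, 259 and 128, which by the same limit allows up to 4.17%, 1.16% and 2.34%. Over the members, the log counts of the 2 genes correlated with r = 0.50 (n = 103), 0.62 (n = 236) and 0.54 (n = 231). Those cells share library and depth and were chosen on both counts.

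The share of Ccl3/Ccl4-high cells among gated microglia was lowest with saline. It was 103 of 5400 cells or 1.91% (exact Clopper-Pearson 95% interval 1.56 to 2.31), 236 of 4749 or 4.97% (4.37 to 5.63), and 231 of 5961 or 3.88% (3.40 to 4.40). The polyIC share of Ncr1-cre was 2.61 times the saline share, and the Gzmb-cko share was 0.78 of the Ncr1-cre polyIC share. The saline interval lies below both others, and those of the polyIC libraries overlap, from 4.37 to 4.40. The spread between animals is unknown. Because deeper cells cross a fixed threshold more easily, cells were also thinned to 3000 UMIs, those below that were left out, and a threshold of 3 UMIs was used. This kept 5400, 4303 and 5660 gated microglia, so cells were lost from the polyIC libraries alone. The shares were then 2.02%, 4.97% and 3.09%. Over the 10 other settings tried the polyIC to saline ratio lay between 2.31 and 2.92 and the Gzmb-cko to Ncr1-cre polyIC ratio between 0.62 and 0.88, so the order of the libraries held in each.

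**Figure D2:**
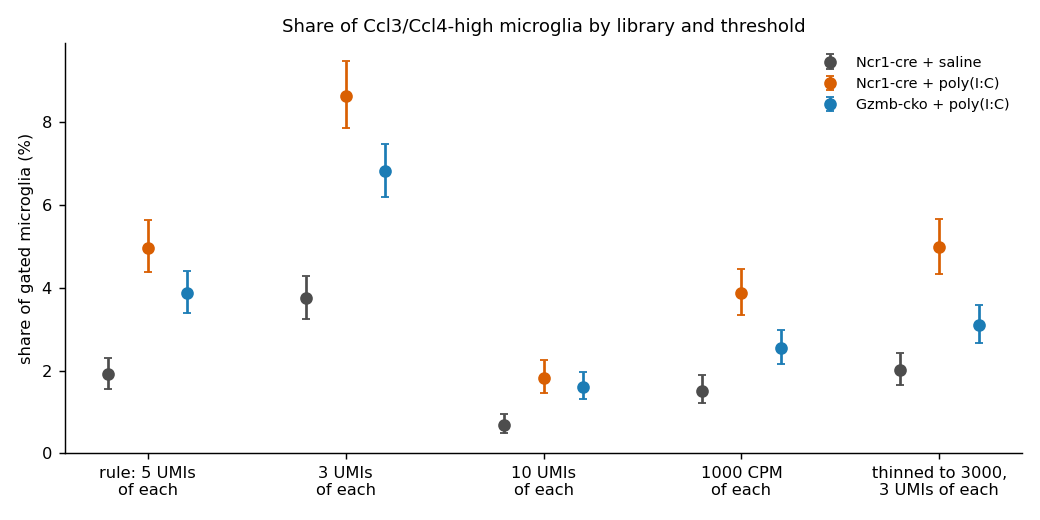
Share of Ccl3/Ccl4-high cells among gated microglia (%) under the rule and 4 other thresholds; points are libraries and bars exact 95% intervals for counting error. In all 5 settings the saline library is lowest and the Ncr1-cre polyIC library highest, at 1.91%, 4.97% and 3.88% under the rule; at 10 UMIs the intervals of the polyIC libraries overlap.

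The same pair of chemokine counts was also met by myeloid cells that the gate leaves out. Among cells with 10 or more Spp1 UMIs that met the other limits, 7.31%, 8.87% and 10.0% were double-high, at median depths of 7089, 9067 and 10316 UMIs. Cells with more than 3 cycle genes had 2.14%, 5.70% and 3.06%, at median depths of 5976, 7629 and 8138 UMIs. Those with at least 2 border macrophage genes had 2.16%, 2.82% and 3.33%, at 6618, 7437 and 8654 UMIs. These 3 groups still had at least 3 of the 6 microglia genes. So had cells with Ccr2 that met the other limits, of which 5 of 207, 1 of 65 and 4 of 88 were double-high. Of cells with fewer than 3 of the 6, and at least 3 border macrophage genes, 1 of 317, 6 of 249 and 4 of 592 were double-high. Cells with no microglia gene and at least 4 monocyte genes had 2 of 345, 0 of 373 and 2 of 251. By the limit of 3 counts, 0 of 373 allows up to 0.804%. High counts of both genes were thus also met by cells outside the gate that carried microglia genes. They were rarer in these last 2 groups than in gated microglia. The cycling cells had the same order of libraries.

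Members were deeper than the cells they were compared with. Their median was 5883, 6137 and 7084 UMIs against 4424, 5055 and 5517 in gated microglia without Ccl4, and 1980, 2267 and 2386 detected genes against 1752, 2039 and 2070. Cells with Xist and no Y gene, from female fetuses, made up 44.7%, 60.6% and 41.6% of members and 41.6%, 52.3% and 33.7% of cells without Ccl4, so the libraries differed in the sexes of their cells. Scrublet called 0, 4 and 4 members doublets. More members, 18 of 103, 15 of 236 and 19 of 231, held at least 3 markers of another cell class. Among all gated microglia these were 653 of 5400, 240 of 4749 and 277 of 5961. The classes counted included neutrophils, choroid plexus and neurons, but not erythroid cells. The part of sex in the shares was not tested.

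The comparison with gated microglia without Ccl4 (4318, 3419 and 4476 cells, same library and gate) shows which other genes went with the 2 chemokines. Of 5522 genes with enough counts, 29 (0.525%) were at least 2-fold higher in the members of all 3 libraries and 0 (0%) were at least 2-fold lower in all 3. In single libraries 67 (1.21%), 58 (1.05%) and 47 (0.851%) were 2-fold higher and 84 (1.52%), 6 (0.109%) and 12 (0.217%) lower. At any size, 19.8% of these genes were higher and 24.2% lower in all 3. The 29 hold Ccl3 and Ccl4 themselves, 25 genes named by rank, and Gm13889 and Phf11b. They were mostly chemokines, cytokines, early-response factors and genes that interferon induces. Since the rule used this contrast, the counts describe the members and support nothing further.

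Of the lists described, the chemokine genes had the highest median ratio when averaged over the 3 libraries. In Ncr1-cre polyIC alone the interferon-stimulated list was higher, with a median log2 ratio of 2.17 against 2.12. Of 12 chemokine genes with a mean of at least 10 CPM, 10 were higher and 1 lower in all 3 libraries, with a median log2 ratio of 2.00, against 1362 higher and 1810 lower of 7674 genes and a median of -0.03 over all genes. This list includes Ccl3 and Ccl4, which the rule chose, and Ccl4 is at 0 in the comparison cells by choice. Its median without these 2 genes was not taken, so its rank among the lists is a description only. Cxcl10, which attracts T and natural killer cells through CXCR3, stood at 491, 393 and 80.7 CPM in members and at 16.4, 9.88 and 5.75 CPM in cells without Ccl4. Ccl5, which attracts T cells and monocytes, stood at 1267, 211 and 222 CPM against 38.3, 31.1 and 28.9 CPM. Both were far above the comparison in each library, and the highest member level was that of saline.

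Ccl2, the main monocyte attractant, stood at 239, 380 and 257 CPM against 49.0, 130 and 54.3 CPM, a ratio of 4.87, 2.92 and 4.73. Ccl7, its neighbour on chromosome 11 with a similar role, had ratios of 5.41, 4.72 and 5.84, and Cxcl16, a membrane-bound chemokine, 3.72, 3.03 and 2.11. Ccl12, another monocyte attractant, had ratios of 8.39, 4.19 and 1.82 and missed the 2-fold line in the Gzmb-cko library. The receptor gene Ccr1 did not go with them. It stood at 20.1, 42.1 and 13.6 CPM in members and at 33.0, 48.8 and 33.5 CPM in cells without Ccl4. Ccrl2, an atypical receptor that binds chemerin, had ratios of 7.25, 3.31 and 3.99. Of the 7 genes used from the chemokine receptor list, it alone passed 2-fold in all 3. That list also holds C3ar1 and C5ar1, which are complement receptor genes.

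Among 13 cytokine and growth factor genes, 11 were higher in all 3 libraries and 0 lower, with a median log2 ratio of 0.96. Il1b, an inflammatory cytokine made as a precursor, stood at 51.1, 38.1 and 20.7 CPM against 4.53, 6.66 and 3.13 CPM. Tnf, the classical early inflammatory cytokine, stood at 38.7, 59.4 and 18.0 CPM against 4.35, 4.89 and 3.80 CPM. As neither level reached 20 CPM in the Gzmb-cko library, Tnf was not among the 5522 genes. Il1a, the related alarmin, had ratios of 2.96, 2.00 and 1.57. Il1a had a UMI in 34, 100 and 79 members, more than Il1b with 12, 23 and 15 and Tnf with 16, 33 and 22.

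Transcription factors and early-response genes split into those that went with Ccl4 and those that did not. Atf3, a stress-induced factor of the ATF/CREB family, stood at 291, 188 and 200 CPM against 36.5, 61.3 and 36.1 CPM, a ratio of 7.97, 3.07 and 5.54. Id2, an inhibitor of basic helix-loop-helix factors, had ratios of 4.01, 2.94 and 4.19, and Egr2, a zinc finger factor, 3.70, 3.31 and 6.18. Rcan1, a feedback inhibitor of calcineurin, stood at 155, 132 and 236 CPM against 24.7, 26.2 and 31.6 CPM. Gadd45b, a stress sensor gene, had ratios of 9.23, 4.0 and 10.0.

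The early genes Fos, Jun and Junb, which rise within minutes of stimulation or cell handling, were not higher in members. Fos stood at 457, 1157 and 634 CPM in members and at 555, 1189 and 881 CPM in cells without Ccl4. Jun had ratios of 0.83, 0.96 and 0.78 and Egr1 of 1.05, 1.19 and 0.87. Of 9 AP-1 genes, Atf3 alone was higher in all 3 and 3 were lower, with a median log2 ratio of -0.13. Of 23 Egr, Klf and other early-response genes 10 were higher and 3 lower, with a median of 0.07. In these 3 libraries the members were therefore no richer in Fos and Jun transcripts than other gated microglia.

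NF-kB is the transcription factor family that inflammatory receptors switch on, and its feedback genes are commonly read as a trace of that. Of 24 genes of NF-kB factors and feedback, 19 were higher and 1 lower in all 3 libraries, with a median log2 ratio of 0.54. Cd83, a surface marker of activated myeloid cells, stood at 197, 190 and 205 CPM against 60.4, 63.8 and 72.8 CPM. Nfkbia, the inhibitor that NF-kB induces against itself, had smaller ratios of 2.01, 1.5 and 1.39, and Nfkbiz 2.71, 1.69 and 1.51. Of 19 genes of the toll-like receptor pathway, 7 were higher and 3 lower, with a median of 0.20 and Tlr2 at ratios of 1.41, 1.75 and 1.33.

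Interferon-stimulated genes encode antiviral proteins. Of 20 used, 18 were higher and 0 lower in all 3 libraries, with a median log2 ratio of 1.85 in saline, 2.17 in Ncr1-cre polyIC and 0.68 in Gzmb-cko polyIC. Ifit1, which binds viral RNA, stood at 63.5, 61.7 and 20.7 CPM against 6.79, 4.84 and 3.94 CPM. Ifit3, its partner, stood at 130, 129 and 30.5 CPM against 11.4, 12.3 and 8.37 CPM. Rsad2, which encodes viperin, had ratios of 3.61, 8.46 and 9.91, and Ifitm3, which blocks viral entry, 2.84, 3.15 and 2.07. The members were higher in every library, including the one given saline, and least so for Ifit1, Ifit3 and Ifitm3 in Gzmb-cko.

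**Figure D3:**
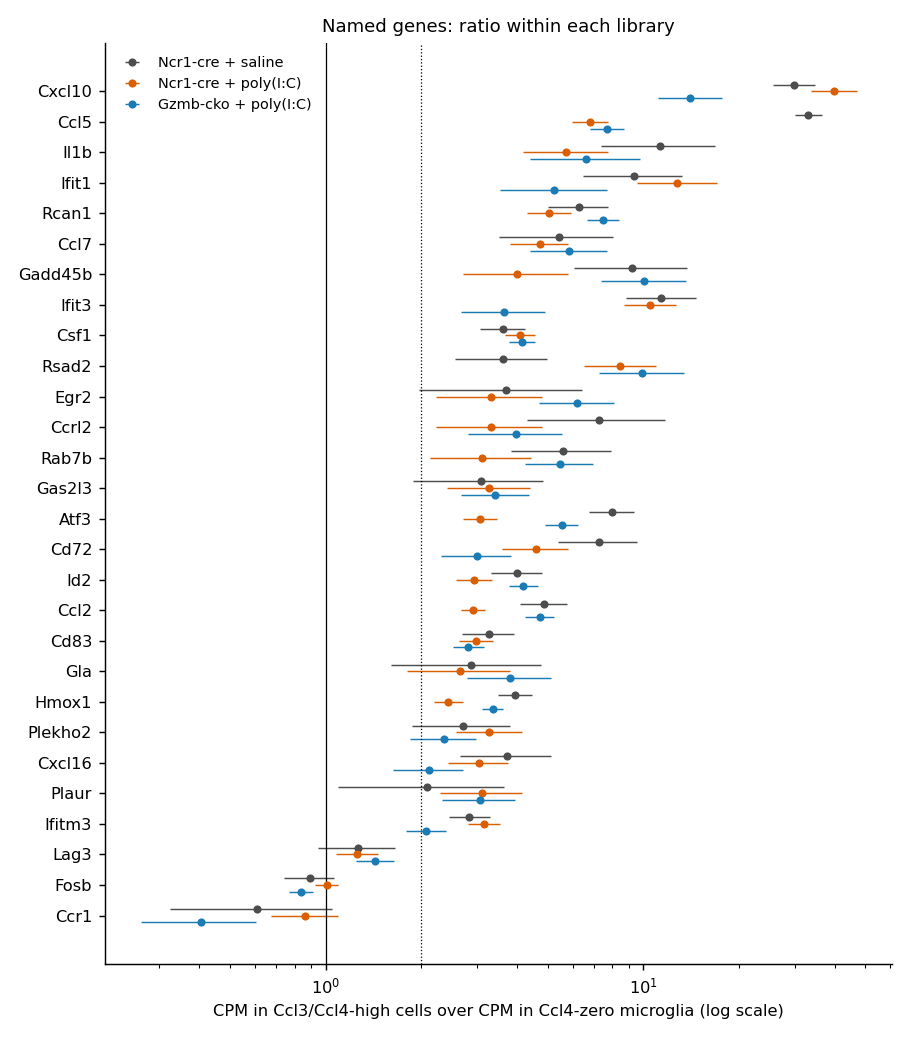
Ratio of the level in Ccl3/Ccl4-high cells to that in gated microglia without Ccl4 (CPM over CPM, log axis) for the 25 named genes and for Lag3, Fosb and Ccr1; bars are exact 95% intervals for counting error and the dotted line is 2-fold. All 25 named genes lie right of 2 in all 3 libraries, Ccl5 runs from 6.79 to 33.1, and Fosb and Ccr1 lie near or left of 1.

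Several metabolic, lysosomal and stress genes were also higher, mostly at smaller ratios. Hmox1, the heme-degrading enzyme heme oxygenase 1, stood at 466, 249 and 418 CPM against 118, 102 and 125 CPM. Rab7b, a late endosome GTPase, had ratios of 5.59, 3.10 and 5.46, and Gla, the lysosomal enzyme alpha-galactosidase A, 2.86, 2.65 and 3.80. Plaur, the urokinase receptor, had ratios of 2.08, 3.10 and 3.05, and Cd72, an inhibitory surface lectin, 7.24, 4.59 and 3.0. Plekho2 and Gas2l3 had ratios of 2.36 to 3.42 over the 3 libraries. Of 15 glycolysis and hypoxia genes 13 were higher and 2 lower, with a median log2 ratio of 0.31, among them Pfkfb3, which drives glycolytic flux, at 2.23, 1.71 and 1.79.

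Disease-associated and axon-tract microglia genes, a set known from aged, diseased and early postnatal brain, were mildly higher: 19 of 23 were higher and 0 lower, with a median log2 ratio of 0.37. Fabp5, a fatty acid carrier, had ratios of 2.04, 1.83 and 2.22, Lgals3 1.97, 2.20 and 2.69, and Cd9, a tetraspanin, 1.65, 1.66 and 1.73. The heat shock list had 12 of 15 genes higher and 0 lower, with a median of 0.20, and the unfolded protein list 12 of 14 higher and 0 lower, with a median of 0.21. Of 8 cholesterol genes 5 were higher and 0 lower, with a median of 0.12, and of 9 immune checkpoint genes 4 were higher and 1 lower, with a median of 0.18.

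Homeostatic microglia genes, which mark the resting state, were somewhat lower: 17 of 24 were lower and 3 higher, with a median log2 ratio of -0.18. Tmem119, a microglia surface protein, stood at 178, 276 and 221 CPM against 290, 376 and 334 CPM, and P2ry12, the purinergic receptor that guides process extension, had ratios of 0.77, 0.78 and 0.74. Both Tmem119 and P2ry12 are among the 6 genes of the gate, which members and comparison cells had to meet alike. Antigen presentation genes (3 higher and 3 lower of 13, median -0.08) and complement and engulfment genes (4 and 4 of 15, median -0.03) had no common direction. Nor had the chemokine receptor list (3 and 4 of 7, median -0.13), which shares the complement receptor genes C3ar1 and C5ar1 with the complement list. Of 17 genes of S, G2 and M phase, 0 were higher and 13 lower, with a median of -0.46, in cells for which the rule already limits cycle genes.

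The genes higher in members divided into those found in many members and those held by a few. Csf1 had a UMI in 49 of 103, 100 of 236 and 123 of 231 members (47.6%, 42.4% and 53.2%), against 19.4%, 19.0% and 21.2% of cells without Ccl4. Thinned to 3000 UMIs per cell these shares were 37.9%, 30.9% and 39.7% against 13.9%, 13.4% and 12.9%. Atf3 had a UMI in 61.2%, 49.2% and 52.8% of members, Cd83 in 58.3%, 53.0% and 58.9%, Id2 in 44.7%, 39.4% and 52.4%, and Ccl2 in 40.8%, 47.0% and 41.6%. These 5 genes were thus each seen in a large part of the members of all 3 libraries.

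Cxcl10, in contrast, had a UMI in 13, 20 and 11 members (12.6%, 8.47% and 4.76%) and Ccl5 in 16, 18 and 10 (15.5%, 7.63% and 4.33%). A single member of the saline library held 461 of its 818 Ccl5 UMIs, and a single member of the Gzmb-cko library 269 of 407. Without the highest cell of each library the Ccl5 ratio was 14.6, 5.07 and 2.62 in place of 33.1, 6.79 and 7.68. Rsad2 in the Gzmb-cko library rested on 7 members, 1 of which held 57 of 73 UMIs. When the highest cell of each gene was left out of the members, 20 of the 25 named genes stayed at 2-fold or more in all 3 libraries, and Gla, Hmox1, Cxcl16, Plaur and Ifitm3 did not. Hmox1, for example, was then at 3.09, 1.95 and 2.94, and over all genes 19 were called in place of 29.

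The few members with Cxcl10 held most of the Ifit1 UMIs of the members. They carried 80.5%, 86.0% and 57.9% of the members' Ifit1 UMIs 63.4%, 73.6% and 79.5% of the Rsad2 UMIs and 50%, 73.2% and 42.9% of the Ifit3 UMIs. By cells the overlap was smaller in Gzmb-cko, where 2 of 7 Ifit1-positive, 2 of 7 Rsad2-positive and 3 of 13 Ifit3-positive members had Cxcl10. Of the Csf1 UMIs they carried 8.24%, 4.69% and 0.56%, below their own share of members in each library. Of the Atf3 UMIs they carried 6.38%, 4.6% and 11.5%, which is below that share in both Ncr1-cre libraries and above it in Gzmb-cko. Csf1 had a UMI in 6, 11 and 3 of these cells. Their mean Ccl4 count was 23.4, 44.2 and 40.4 UMIs, against 16.1, 14.7 and 18.9 in members without Cxcl10. Ifit1, Ifit3 and Rsad2 UMIs thus lay largely in Cxcl10-positive members of the Ncr1-cre polyIC library, and Csf1 was present both in members with and in members without Cxcl10.

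Ifnb1, which encodes interferon beta and is normally silent, had a UMI in 5, 3 and 6 of all cells that passed the cell filter, and in 1, 1 and 2 members. In both Ncr1-cre libraries the 1 Ifnb1-positive member was also the member with the most Ccl4. In saline that cell held 1 Ifnb1, 125 Ccl4, 131 Ccl5, 15 Il12b and 3 Tnf UMIs among 6223. In Ncr1-cre polyIC it held 20 Ifnb1, 223 Ccl4, 94 Ccl5, 86 Il12b and 37 Tnf UMIs among 6079. Il12b, the p40 subunit of interleukin-12 and interleukin-23, was seen in 4, 3 and 2 members with 23, 90 and 5 UMIs, so these cells held most of it in both libraries. The 2 Gzmb-cko members with Ifnb1 differed from them: they ranked 4 and 33 by Ccl4, with 105 and 29 UMIs, and held 0 Il12b and 0 and 1 Ccl5 UMIs. The first of the 2 held 6 Ifnb1, 14 Cxcl10 and 57 Rsad2 UMIs. Both had Cxcl10, and together they held 55.3% of the Ifit1 and 78.1% of the Rsad2 UMIs of the Gzmb-cko members. With so few cells these are descriptions of single cells.

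The DNA just upstream of 4 of these genes is shown because they stand for the chosen chemokines (Ccl3), genes seen in many members (Csf1, Atf3) and in few (Cxcl10). Each is the 250 bases before the gene's start in RefSeq (GRCm38.p6), from 5' to 3' on the gene's own strand, which is the minus strand for all 4. Capitals mark matches, on either strand, to 5 motifs, in which N is any base. They are GGG, 2 bases of any kind and TTTCC (NF-kB-type), TGANTCA (AP-1), TGACGNNA (CRE/ATF), GAAA, 2 bases of any kind and GAAA (interferon-stimulated response element, ISRE), and TATAA. The regions are chr11:83649379-83649628, chr3:107760470-107760719, chr1:191183334-191183583 and chr5:92348890-92349139. Ccl4 and Ccl5 are named only.
Ccl3: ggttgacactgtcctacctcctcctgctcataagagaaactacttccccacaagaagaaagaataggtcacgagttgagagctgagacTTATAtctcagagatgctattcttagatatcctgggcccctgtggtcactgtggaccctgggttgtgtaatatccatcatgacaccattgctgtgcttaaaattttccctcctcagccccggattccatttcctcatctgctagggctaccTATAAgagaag
Csf1: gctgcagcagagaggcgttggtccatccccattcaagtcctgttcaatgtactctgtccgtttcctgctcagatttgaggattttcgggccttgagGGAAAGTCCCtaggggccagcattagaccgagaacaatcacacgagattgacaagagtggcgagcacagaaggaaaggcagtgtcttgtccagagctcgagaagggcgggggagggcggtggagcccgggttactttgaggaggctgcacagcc
Atf3: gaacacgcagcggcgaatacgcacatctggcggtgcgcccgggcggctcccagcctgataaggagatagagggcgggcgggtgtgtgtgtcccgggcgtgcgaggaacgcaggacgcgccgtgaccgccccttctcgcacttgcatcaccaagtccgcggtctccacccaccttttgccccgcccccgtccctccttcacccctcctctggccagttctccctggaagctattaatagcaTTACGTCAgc
Cxcl10: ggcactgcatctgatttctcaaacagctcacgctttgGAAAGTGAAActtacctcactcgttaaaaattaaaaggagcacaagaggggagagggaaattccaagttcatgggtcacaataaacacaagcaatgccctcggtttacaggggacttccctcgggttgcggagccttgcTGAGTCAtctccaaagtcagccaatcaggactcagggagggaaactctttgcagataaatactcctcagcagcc

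Ccl3 held TATAA matches from 162 bases before its RefSeq start, on the opposite strand, and from 11 bases before it. Csf1 held an NF-kB-type match on the opposite strand, from -154 to -145. Atf3 held a CRE/ATF match on the opposite strand, from -10 to -3, next to its RefSeq start. In the annotation that gave the Ccl3 and Ccl4 positions, Atf3 runs from 191170296 to 191218039, so this RefSeq start lies inside the gene. Ccl3 starts at 83649355 there, downstream of its RefSeq start, so both Ccl3 matches lie farther from that start. Cxcl10 held an ISRE match from -213 to -204 and an AP-1 match from -74 to -68. Of Ccl3, Ccl4 and the 25 named genes, 19 had an entry among 27025 promoters. The ISRE letters were in 4 of these 19 (Cxcl10, Ifit1, Ifit3 and Rsad2) and in 3.04% of all promoters. AP-1 letters were in 5 of 19 against 6.87%, CRE/ATF letters in 2 against 5.86%, NF-kB-type letters in 1 against 1.40% and TATAA in 5 against 23.5%. No 2 matches overlap in these 4 windows. A match is not a bound site, and the absence of a match says only that these letters are not in the window.

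Gated microglia were also thinned to 3000 UMIs and binned by Ccl4, and Csf1 and Rcan1 were highest at 10 to 29 Ccl4 UMIs among the 4 bins up to there. From 0 to 1 or 2, 3 to 9, and 10 to 29 Ccl4 UMIs, Csf1 went from 74.0 to 106, 219 and 361 CPM in saline. The same steps gave 67.2, 131, 132 and 327 CPM in Ncr1-cre polyIC and 66.9, 88.6, 175 and 389 CPM in Gzmb-cko. The bin of 10 to 29 held 36, 52 and 42 cells, and the bin of 30 or more only 1, 5 and 13, so no trend is read from the last. Rcan1 stood at 25.6, 27.0 and 30.9 CPM at 0 Ccl4 UMIs, at 45.9, 42.3 and 43.4 CPM at 1 or 2, at 69.3, 38.2 and 117 CPM at 3 to 9, and at 269, 276 and 302 CPM at 10 to 29. In Ncr1-cre polyIC neither gene was clearly higher at 3 to 9 than at 1 or 2. Fosb had no common course, at 237 to 204 CPM in saline, 383 to 244 in Ncr1-cre polyIC and 378 to 460 in Gzmb-cko. P2ry12 was lower at 10 to 29 than at 0 Ccl4 UMIs in each library, at 685 against 1049, 1064 against 1569 and 865 against 1282 CPM.

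**Figure D4:**
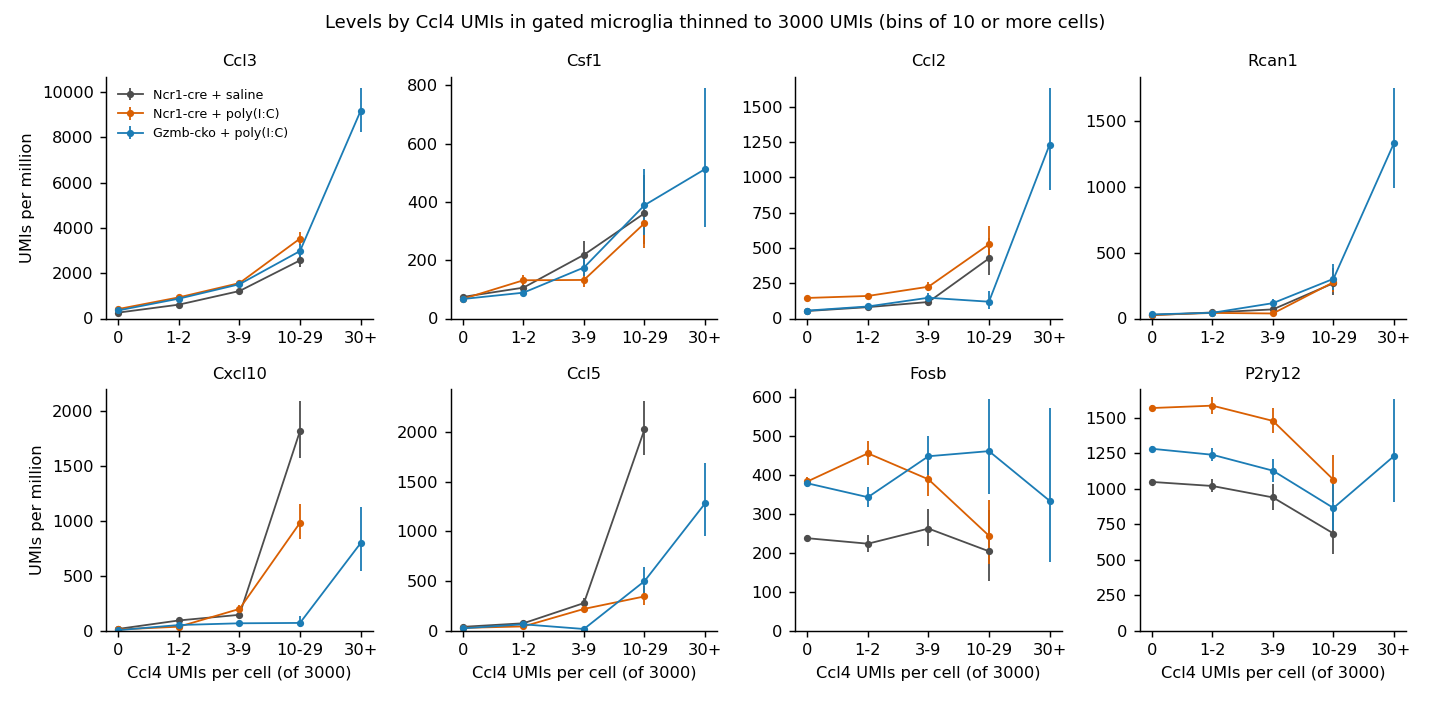
Levels of 8 genes (CPM) by the number of Ccl4 UMIs per cell, in gated microglia thinned to 3000 UMIs; lines are libraries, bars exact 95% Poisson intervals, and bins under 10 cells are left out. Ccl3, Csf1 and Rcan1 are higher at 10 to 29 Ccl4 UMIs than at 0 in all 3 libraries, Fosb has no common course, and P2ry12 is lower.

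The genes whose counts per cell followed Ccl4 most closely were ranked by the lowest of the 3 library correlations of log counts over thinned gated microglia (5400, 4303 and 5660 cells). Ccl3 led with r of at least 0.35, then Atf3 with 0.16, Cd83 with 0.14, C3ar1 with 0.13 and Id2 with 0.13. Rcan1, Ccl2, Ifnb1, Cd9 and Cxcl10 followed, with 0.13 to 0.10. Ifnb1 had a UMI in 1, 2 and 4 gated microglia before thinning, so its rank rests on single cells. Apart from that of Ccl3 these are weak correlations in sparse counts, given as a ranking only, over cells that share library and depth.

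Members did not form a cluster of their own when gated microglia were clustered without Ccl3 and Ccl4. They were spread over 14 of 15 clusters, of which 2 stood out. The cluster led by Hmox1, Fabp5, Hspa1a and Csf1 held 232 of the 570 members, which were 8.78% (7.73 to 9.92) of its 2643 cells. The cluster led by Ccl5, Cxcl10 and Ifit3 held 56 members, 11.3% (8.68 to 14.5) of its 494 cells. The overall share was 3.54%. By library, the first held 7.38%, 10.6% and 8.24% members and the second 8.14%, 17.8% and 9.09%. A large cluster led by Btg2, Junb and Fos held 3.33% members among 3308 cells, near the overall share. Of its cells 83, 1619 and 1606 came from the 3 libraries. It held 0.97% of the saline members and 31.4% and 15.2% of the members of the polyIC libraries. A cluster with Rps29 and Rps21 among its leading genes, 2201 of whose 2288 cells were from saline, held 17.5%, 0.42% and 0% of members. The members of the libraries thus lay in different clusters in part, as did all gated microglia of the libraries. At a finer resolution of 2, a cluster led by Csf1 and Rcan1 held 104 members, 14.6% (12.1 to 17.5) of its 710 cells, and 14.5%, 17.4% and 13.2% by library. As clustering used these cells' genes, the shares are descriptions.

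**Figure D5:**
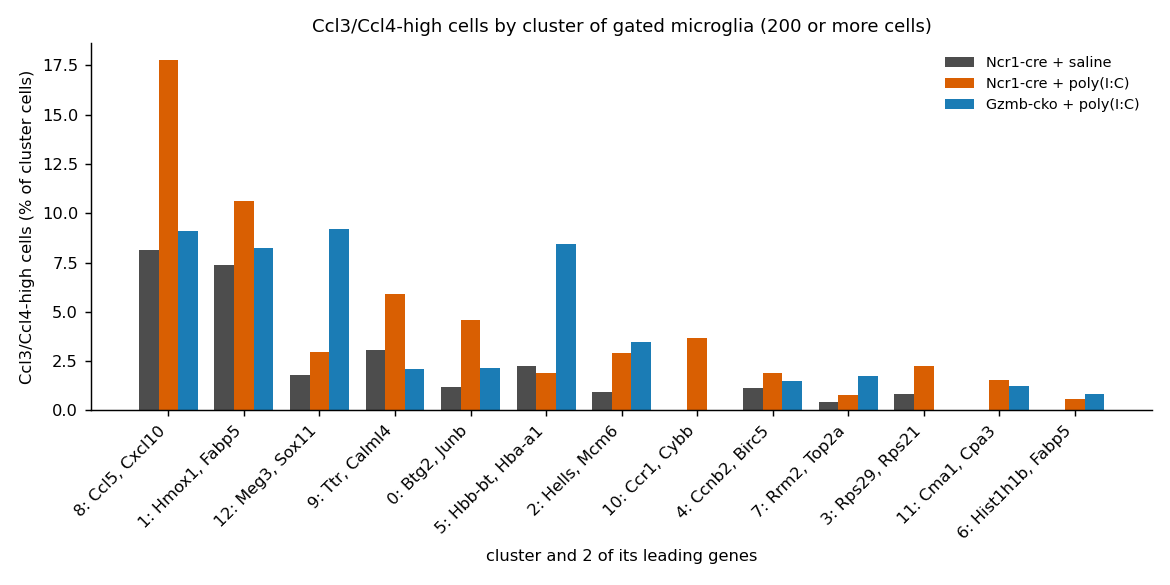
Ccl3/Ccl4-high cells as a share of the cells of each cluster of gated microglia (%), for the 13 clusters with at least 200 cells; bars are libraries and each cluster is named by 2 of its leading genes. The clusters led by Ccl5 and Cxcl10 and by Hmox1 and Fabp5 are above 7% in all 3 libraries, and most others below 5%.

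Single cells of the same kind were near each other without being alone. Of the 20 nearest neighbours of a member, on average 10.4%, 11.2% and 10.8% were members, against 1.42%, 2.70% and 2.29% for cells without Ccl4 and 3.54% of all gated microglia. Most neighbours of a Ccl3/Ccl4-high cell were therefore other gated microglia.

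Within the members, Ncr1-cre polyIC and Ncr1-cre saline differed by at least 1.5-fold for many genes, but the member libraries are small, their scale uncertain and their members in part in different clusters. Of 5599 genes, 944 (16.9%) were higher and 234 (4.18%) lower with polyIC, with 80.1% of these called genes higher. In gated microglia without Ccl4, 3.86% were higher and 1.63% lower among 5901 genes. With TMM scaling 60.6% of the called genes were higher in members, and with mitochondrial, ribosomal and hemoglobin UMIs left out of the totals 59.6%. The median log2 difference of all tested genes was 0.17 by totals and 0.04 by TMM, and single values here are read relative to it. Ccl3 in members was 2089, 2506 and 2723 CPM and Ccl4 2712, 2344 and 2509 CPM. The rule cuts members at 5 UMIs of both genes, so these levels cannot show how the genes differ between libraries. Among all gated microglia, 604 of 5400, 1145 of 4749 and 1231 of 5961 cells held at least 5 Ccl3 UMIs.

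The members' largest polyIC to saline differences in the 2 Ncr1-cre libraries were of neutrophil genes and came from few cells. Stfa1, a neutrophil cysteine protease inhibitor, stood at 49.6, 647 and 87.8 CPM, with 698 of 1121 UMIs of the Ncr1-cre polyIC members in 1 cell. Lcn2, a neutrophil granule protein, stood at 12.4, 213 and 28.9 CPM with 239 of 369 UMIs in 1 cell. BC100530, Stfa2, Stfa3, Stfa2l1, Pglyrp1, Wfdc21 and Anxa1 had the same order of libraries. Summed over 8 other neutrophil markers the members held 234, 3333 and 720 CPM, and none of the 8 was at 0. By cells the order was another: at least 3 of the 8 were found in 12, 4 and 1 members (11.7%, 1.69% and 0.43%). Without cells holding markers of another class, the direction of all 9 genes reversed (Stfa1 to 0.23, Lcn2 to 0.33). Hspb1, a small heat shock protein, was the 1 other gene of the 10 with the highest ratio, at 3.10, 34.0 and 59.4 CPM, with 50 of 59 UMIs of the Ncr1-cre polyIC members in 1 cell.

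Lower with polyIC in the members were Hspa1a, an inducible chaperone, at 92.9, 13.8 and 80.7 CPM, and Ccl5, at 0.167 (0.147 to 0.189) of saline. In both, 1 saline cell held most of the saline UMIs, 41 of 60 for Hspa1a and 461 of 818 for Ccl5. Car2 and Fech, known from red cell precursors, were lower too, at 0.186 and 0.373. Erythroid markers summed to 70182, 25045 and 19471 CPM in members and to 84787, 48950.1 and 18182 CPM in cells without Ccl4, and their part in these values was not tested. Rab7b was at 0.403, Apoc1, an apolipoprotein, at 0.405, and Bcl2a1d, an NF-kB-induced survival gene, at 0.321, from 55.8, 17.9 and 14.2 CPM. Epb41l4aos and Dopey2 were at 0.319 and 0.373.

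Fos and other AP-1 genes were higher in the polyIC than the saline library of Ncr1-cre, in members and in the comparison cells. Of 8 AP-1 genes tested 5 were at least 1.5-fold higher and 1 lower in polyIC members, against 16.9% higher and 4.18% lower of all genes tested. The list's median log2 difference was 0.75 in members and 0.55 in cells without Ccl4, against 0.16 over all genes used in both sets. Fos was 2.53-fold higher in members and 2.14-fold in cells without Ccl4, and Fosb 1.78-fold and 1.57-fold. The Fos and Fosb differences between the Ncr1-cre libraries were thus of like size in both sets of cells.

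Gzmb-cko polyIC and Ncr1-cre polyIC members differed in the opposite balance: of 6102 genes 173 (2.84%) were at least 1.5-fold higher and 617 (10.1%) lower in Gzmb-cko, against 0.22% and 1.15% of 5913 genes in cells without Ccl4. By totals 21.9% of the called genes were higher and by TMM 39.7%. The Ncr1-cre polyIC library stands on opposite sides of this comparison and the one with saline, so the 2 balances are not independent. The members held 1733216 and 1833864 UMIs in Ncr1-cre polyIC and Gzmb-cko, and the cells without Ccl4 19233551 and 27124682. Ratios in members therefore carry the larger counting error. Of the 18 functional lists the interferon-stimulated one had the lowest median: 14 of 20 tested genes were at least 1.5-fold lower and 0 higher. Its median log2 difference was -1.29 in members and -0.04 in cells without Ccl4. Ifit2 stood at 86.5 CPM in Ncr1-cre polyIC and 15.8 in Gzmb-cko members, Ifit3 at 129 and 30.5, Isg15 at 151 and 34.9 and Irf7 at 73.9 and 17.4. Cxcl10, at 393 and 80.7 CPM, lay at 0.205 (0.171 to 0.246), in 20 of 236 and 11 of 231 members.

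These interferon values rest on a small number of cells in each library. Ifit3 was seen in 14, 23 and 13 members and Ifit1 in 10, 19 and 7. Cxcl9, another CXCR3 ligand, was seen in 3, 6 and 1 members with 51, 85 and 1 UMIs, a ratio of Gzmb-cko to Ncr1-cre polyIC of 0.0111 (0.00028 to 0.0636). Il12b was at 0.0525 (0.0166 to 0.127), and 86 of its 90 UMIs in Ncr1-cre polyIC were those of the Ifnb1-positive cell. Tnf was at 0.303 and Ccl12 at 0.423. Cd69, an early activation marker, was at 0.121. The chemokine list had 5 of 11 tested genes at least 1.5-fold lower and 0 higher, and the NF-kB list 4 of 19 lower and 0 higher. Of all genes tested 10.1% were lower and 2.84% higher.

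Other genes low in Gzmb-cko members were Sostdc1, Igfbp2, Mt3, Mlf1 and Col9a3, at 0.0357 to 0.108, and Anxa1 and Ifitm6, at 0.113 and 0.118. Sostdc1, Igfbp2 and Mt3 are among the genes that lead the gated cluster headed by Ttr, a choroid plexus gene, and 40 of the 53 Sostdc1 UMIs of the Ncr1-cre polyIC members lay in 1 cell. Choroid plexus markers summed to 5142, 6431 and 1184 CPM in members and 6265, 4574 and 2246 CPM in cells without Ccl4, with Prlr at 0 in members of all 3 libraries. Their part in these differences was not tested.

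Higher in Gzmb-cko than in Ncr1-cre polyIC members were Meg3, a maternally expressed noncoding RNA, at 7.50 and 95.4 CPM, and Sox11, a factor of immature neurons, at 5.19 and 51.8 CPM. Of the Sox11 UMIs in Gzmb-cko members 61 of 95 lay in 1 cell, and of the Meg3 UMIs 75 of 175. At least 3 of 8 neuron markers were found in 2, 1 and 12 members (1.94%, 0.42% and 5.19%) and the summed level of these markers was 297, 230 and 452 CPM, with Snap25 at 0 in members of all 3 libraries. Hspa1b and Hspa1a were higher at 10.6 (4.6 to 29.8) and 5.83 (3.77 to 9.38), again with 1 cell holding 49 of 67 and 97 of 148 UMIs. Pmp22, a membrane protein, stood at 31.7 and 72.5 CPM, and Epb41l4aos, Lbx2, Rab34, Tmem159 and Yars were 2.21-fold to 2.99-fold higher.

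Gzmb-cko polyIC against Ncr1-cre saline gave 590 of 5520 genes (10.7%) at least 1.5-fold higher and 252 (4.57%) lower, against 0.937% and 1.54% in cells without Ccl4. Higher calls were 70.1% of all calls by totals, 62.6% by TMM and 52.5% without mitochondrial, ribosomal and hemoglobin UMIs. This comparison shares a library with each of the previous ones. Cxcl10, Ccl5 and Ifit3 were lower in Gzmb-cko, at 0.164, 0.175 and 0.235, as were Cxcl9, with 1 UMI, and Fech at 0.238. Higher were Sox11 and Hspb1, each with at most 2 UMIs in saline, and Cst7, a cystatin of disease-associated microglia, at 7.74 and 32.7 CPM in 5 and 30 members. Large and Fam92a were each at 6.20 and 27.3 CPM.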

How the data were processed

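The authors deposited raw UMI counts per gene and barcode of 3 libraries. The pipeline was Cell Ranger 5.0.0 per the file headers. Per the submitters' processing notes it was version 3.0.1, with STAR and mm10. Members, gene lists and named genes were chosen with earlier results of these data known. The rule was applied to all 44013 barcodes, and UMIs were summed over the members and over gated microglia with Ccl4 = 0 in each library and scaled to CPM. Ratios were read by size only: 2-fold in all 3 libraries for genes of 20 CPM or more in the higher group and 30 UMIs, and 1.5-fold between libraries with 20 CPM and 50 UMIs. The 25 genes with the highest smallest ratio were named, and 10 or 5 per direction between libraries, where TMM scaling gave the same direction, as did averaging CPM over cells and, between libraries, the interval left out 1. Xist, Y, mitochondrial, ribosomal, hemoglobin and predicted genes and other classes' markers were left out of that ranking. List medians used genes of at least 10 CPM and a pseudocount of 1 CPM. Intervals are exact at 95% (Clopper-Pearson, Poisson or conditional binomial). Clustering used scanpy 1.11.5 and leidenalg 0.10.2 with 2000 variable genes, 30 components, 20 neighbours and resolution 1, and doublets were called with Scrublet but kept. The count ratios were tested on simulated sums with Poisson error alone. That setting does not cover genes whose UMIs lie mostly in 1 cell. Alternatives were other thresholds, scalings, filters, depths, sexes and cell sets. Those leaving out cells with markers of other classes, or each gene's highest cell, were chosen after seeing the data. Some genes that the rule names are not reported here.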

Additional observations from a re-analysis of the deposited data

Results flagged for a closer look

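In 13 comparisons between libraries the difference went one way in the Ccl3/Ccl4-high cells and the opposite way in gated microglia without Ccl4 of the same libraries. The contrast between the cell sets was not tested, and each rests on 1 library per group. These 13 were looked for only among the genes named between libraries, which were picked for large member ratios. Of all genes called in members and tested in both sets, most went the same way. For polyIC over saline these were 94.2% of higher and 78.8% of lower calls. For Gzmb-cko over Ncr1-cre polyIC they were 83.2% and 90.9%, and for Gzmb-cko over saline 90.2% and 62%. For Ncr1-cre polyIC over saline the members' ratio was 37.3 (6.53 to 1486) for Anxa1, 25.3 (4.40 to 1015) for Pglyrp1 and 20.5 (3.53 to 824) for Wfdc21, each with 1 UMI in the saline members. It was 17.2 for Stfa2, 17.2 for Lcn2, 16.1 for BC100530, 13.05 for Stfa1, 12.4 for Stfa3 and 9.03 for Stfa2l1. In cells without Ccl4 the ratios of these 9 neutrophil genes lay between 0.397 for Wfdc21 and 0.631 for Pglyrp1. Hspa1a was at 0.149 in members and 2.03 in cells without Ccl4.

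For Gzmb-cko over Ncr1-cre polyIC, Hspa1b was at 10.6 in members and 0.193 in cells without Ccl4, and Hspa1a at 5.83 and 0.368. For Gzmb-cko polyIC over saline, Sox11 was at 33.4 (5.86 to 1335) in members, with 1 UMI in saline, and at 0.528 in cells without Ccl4. Single cells held 76 of 100 Anxa1 UMIs in the Ncr1-cre polyIC members and 61 of 95 Sox11 UMIs in the Gzmb-cko members.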

How the results depend on the processing

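The share of members moved with the threshold, to 3.74%, 8.63% and 6.81% at 3 UMIs, 0.685%, 1.83% and 1.61% at 10 UMIs and 1.52%, 3.87% and 2.55% at 1000 CPM, and to 3.09% for Gzmb-cko when thinned. The order of libraries was the same in each. The cause of the other moves was not tested. Against cells without Ccl4, 29 genes were higher and 0 lower. The higher count was 60 at 10 UMIs, 132 without a filter on low levels and 19 without each gene's top cell. The lower count was 1 with TMM scaling, with comparison cells lacking Ccl3 too, with doublets removed, without cells holding other classes' markers and without the top cell, 4 in cells of 4000 to 8000 UMIs, 6 at 10 UMIs and 1357 without the filter. No paired analysis was possible because each group is 1 library.

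For polyIC over saline in Ncr1-cre members, the 944 higher and 234 lower genes became 622 and 405 with TMM, 612 and 414 without mitochondrial, ribosomal and hemoglobin UMIs, 215 and 116 in male cells and 380 and 150 at 50 CPM, and 418 were higher at 10 UMIs. For Gzmb-cko over Ncr1-cre polyIC, the 173 higher and 617 lower became 74 and 395 at 3 UMIs and 62 and 222 at 50 CPM, with 276 higher by TMM and lower counts of 368 at 10 UMIs and 278 in male cells. For Gzmb-cko over saline, the 590 higher and 252 lower became 374 and 162 in female cells, 256 and 150 in male cells and 204 and 125 at 50 CPM, with 389 higher at 3 UMIs and 341 at 10 UMIs.

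Among lists, a minimum of 50 CPM moved the median log2 ratio of members over cells without Ccl4 to 2.49 for chemokines, -0.046 for Egr, Klf and early-response genes, 0.43 for chemokine receptors and 0.24 for cholesterol genes. It moved the toll-like receptor list to 0.17 for polyIC over saline and the cycle list to 0.053 for Gzmb-cko over Ncr1-cre polyIC. TMM moved polyIC over saline to -0.10 for interferon-stimulated genes, 0.16 for the toll-like receptor list, 0.23 for homeostatic genes and 0.077 for complement genes. It moved complement genes to -0.040 for members over cells without Ccl4 and glycolysis genes to 0.25 for Gzmb-cko over Ncr1-cre polyIC. At resolution 2.0 the cluster with Hspa1a and Hmox1 in the lead held 10.7% members and that led by Cxcl10 22.4%.

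Of single genes, 24 values between libraries reversed. For polyIC over saline in male cells, Anxa1, Stfa2, Lcn2 and Stfa2l1 had a ratio of 0, Pglyrp1 and Stfa3 to 0.56, BC100530 to 0.21 and Stfa1 to 0.259. Without cells holding other classes' markers, Anxa1, Stfa2 and Lcn2 were at 0.329, Pglyrp1 at 0.659, Wfdc21 at 0, BC100530 at 0.229, Stfa1 at 0.233, Stfa3 at 0.22 and Stfa2l1 at 0.0549. At 10 UMIs Lcn2 was at 0.573 and Fech at 1.23, and in female cells Car2 was at 2.06. For Gzmb-cko over Ncr1-cre polyIC, Ifitm6 was at 2.67 at 10 UMIs, Hspa1a at 0.755 in female cells and Il12b at 2.18 in male cells. For Gzmb-cko over saline, Fech was at 1.07 in male cells. Against cells without Ccl4, 0 of the gene values reversed, 770 stayed and 184 moved. Depth limits most the saline members, with 645625 UMIs in all.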
